A study of Mus musculus with 19 samples.

Results

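The 34 genes described here activate fatty acids and oxidise them in mitochondria and peroxisomes. They were chosen by function and taken by symbol from the 55536 genes counted in each library, and all 34 were found and passed the filter on low counts at both times. RNA came from the ventricles of mice with an inducible, heart-specific knockout of Mpc1 (KO) and from wild-type mice (WT), 8 or 16 weeks after induction. Libraries numbered 5 for WT-8, 4 for KO-8, 5 for WT-16 and 5 for KO-16. Mpc1 encodes a subunit of the carrier that brings pyruvate into the mitochondrial matrix. The labels do not name the Cre driver, the inducing agent, the strain, or the age of the mice. Nor do they say whether the controls carried a floxed allele or were given the inducer, or whether libraries are from different animals. The p-values therefore reflect library-to-library spread, which may be technical.

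Fatty acids are the main fuel of the adult heart. Acyl-CoA synthetases first join them to coenzyme A, and the carnitine shuttle (CPT1 on the outer and CPT2 on the inner mitochondrial membrane) brings long chains into the matrix, a step that malonyl-CoA inhibits. There each turn of beta-oxidation uses an acyl-CoA dehydrogenase, a hydratase, a hydroxyacyl-CoA dehydrogenase and a thiolase, with separate enzymes for long, medium and short chains, and the electron transfer flavoprotein passes the electrons to the respiratory chain. Peroxisomes run a parallel cycle that shortens very long, branched and dicarboxylic chains.

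Library totals were 17.4 to 27.5 M counted read pairs in WT-8, 16.5 to 19.5 in KO-8, 8.63 to 19.7 in WT-16 against 9.54 to 26.9 in KO-16. A transcript of 18S ribosomal RNA (CT010467.1) made up 6.88% to 39.1% of the counts in WT-16 against 1.71% to 30.0% in KO-16, and at most 0.067% at 8 weeks. The common coefficient of variation was 0.0935 among the 8-week and 0.227 among the 16-week libraries. Levels are CPM, counts divided by the library total in M and by its TMM scaling factor, and the errors given with ± are SDs over the 5 libraries of a group, or the 4 of KO-8. Mpc1 was at 74.3 ± 6.82 CPM (SD, n = 5) in WT-8 against 10.8 ± 1.62 (n = 4) in KO-8, and at 69.6 ± 9.29 in WT-16 against 15.1 ± 6.99 in KO-16 (n = 5 each). KO-16 replicate 1 had the most Mpc1 of its group, 26.2 CPM. A second check was Esr1, the estrogen receptor gene whose ligand-binding part is used in inducible Cre proteins. It was at 1039 to 1658 CPM in KO-8, 182 to 1034 in KO-16 and at most 2.27 in WT-16. WT-8 replicate 1 stood apart from its group with 1313 CPM of Esr1, so 8-week counts are also given without it. By sex-linked transcripts the libraries were female, except for male ones in WT-16 (replicate 5) and KO-16 (replicate 4).

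At 16 weeks most mitochondrial enzymes of beta-oxidation had lower means in KO than in WT, while the peroxisomal genes were split. Of the 34 genes, 29 (85.3%) had a log2 fold change below 0, against 49.6% of the 12277 genes tested, with a median of -0.455 against 0.003. Past an adjusted p of 0.05, 5 fell (Ehhadh, Acsl1, Cpt2, Crat and Etfa; 0.953% of all genes tested fell) and 1 rose (Acsl6; 1.84% rose), and 2.79% of genes passed in either direction. At 8 weeks the same steps had smaller differences, with a median of -0.086 against -0.008 over 15224 genes and 23 of 34 below 0 against 51.9%. There 5 fell (Ehhadh, Acsl3, Echs1, Etfb and Hadhb; background 4.29%) and 1 rose (Acsl6; background 3.99%), and 8.28% of genes passed in either direction. Without WT-8 replicate 1, 4 fell and 1 rose, with 940 of 15056 genes past the threshold in either direction. Hadhb did not pass there (adjusted p = 0.07795, and 0.01079 to 0.83 over all its alternatives).

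**Figure D1:**
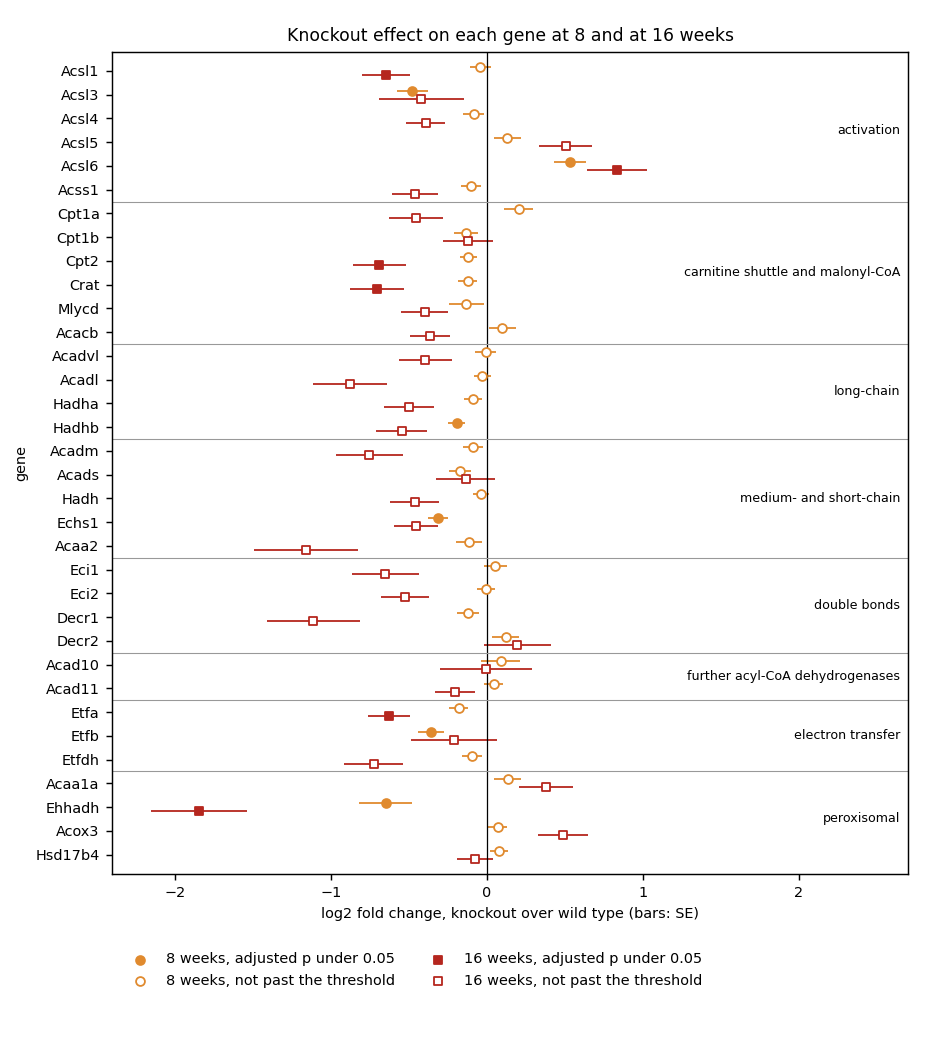
Log2 fold change of KO over WT (x axis, log2 units) for each of the 34 genes (y axis, grouped by step), at 8 weeks (circles) and 16 weeks (squares). Bars are standard errors and filled symbols passed an adjusted p of 0.05. At 16 weeks 29 of 34 genes lie left of 0, and Ehhadh and Acsl6 passed at both times in opposite directions.

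How many of the genes passed at 16 weeks depended on the fit and on single libraries. At an unadjusted p of 0.05, 22 members were lower (12.2% of all genes) and 4 higher (13.4%) at 16 weeks, and 7 lower (12.3%) and 2 higher (11%) at 8 weeks. A fit to all 19 libraries takes 1 spread per gene from both times, with a common coefficient of variation of 0.171. This lies between the 0.0935 of the 8-week and the 0.227 of the 16-week libraries. Its 16-week p-values may thus be too small and its 8-week ones too large, here and wherever this fit is named below. In it 21 members fell at 16 weeks (background 8.84%) and 3 rose, namely Acsl5, Acsl6 and Acox3 (background 10.7%). At 8 weeks no member passed in either direction in that fit (0.0866% and 0.105% of 16164 genes). There 4 members, and 1247 of the 16164 genes, had an unadjusted p under 0.05. Leaving out KO-16 replicate 1 gave 19 fallen and 3 risen members and 1702 genes in all, against 343 with it. Leaving out KO-16 replicate 5 gave 13 fallen members, with 1855 of 12864 genes past the test in either direction. Fewer members passed without other 16-week libraries. None fell without WT-16 replicate 1 or 4 or KO-16 replicate 4, where 33 genes passed in each fit. In these fits 23, 23 and 24 members, and 2762, 2550 and 2459 of all genes, had an unadjusted p under 0.05 in either direction. Without WT-16 replicate 2 or 5 or KO-16 replicate 2 or 3, 1 member fell in each, and 30, 47, 49 and 45 genes passed. Without WT-16 replicate 3, 2 members fell and 212 genes passed. None passed without the male libraries, with the 18S share as a covariate, or without the libraries under 10% 18S. Over all genes 12, 28 and 12 passed there. An unadjusted p under 0.05 was reached by 20, 25 and 13 members, and by 2123 of 13262, 2092 of 12277 and 1392 of 12134 genes. In each fit that left out a library, 27 to 29 of the 34 log2 fold changes were below 0. Of 26 alternatives at 16 weeks Ehhadh passed in 20, Etfa in 16, Acsl1 in 15, Acsl6 in 14, and Cpt2 and Crat in 13 each. Of 20 at 8 weeks Etfb and Echs1 passed in 19, Acsl3 and Acsl6 in 18, Ehhadh in 12 and Hadhb in 6.

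For 5 members the upstream sequence is shown, because they passed the test at 16 weeks, or at both times, and their start sites had an entry in the RefSeq promoter table for GRCm38.p6, in which 29 of the 34 genes had 32 promoters. The windows are the 250 bases before the start site, 5′ to 3′ on the gene's strand. Capitals mark matches, on either strand, to motifs searched by their letters: TCAAGGTCA (the extended element bound by estrogen-related receptors), AGGTCA (the nuclear receptor core site, which lies inside the former), CCAAT (the CCAAT box) and GGGCGG (the GC box). The coordinates are chr16:21787835-21788084 (minus strand) for Ehhadh, chr11:54303574-54303823 (plus strand) for the most upstream of the 3 starts of Acsl6, chr9:55512244-55512493 (minus strand) for Etfa, chr4:107923590-107923839 (minus strand) for Cpt2 and chr8:46470787-46471036 (plus strand) for the first of the 2 starts of Acsl1.
Ehhadh: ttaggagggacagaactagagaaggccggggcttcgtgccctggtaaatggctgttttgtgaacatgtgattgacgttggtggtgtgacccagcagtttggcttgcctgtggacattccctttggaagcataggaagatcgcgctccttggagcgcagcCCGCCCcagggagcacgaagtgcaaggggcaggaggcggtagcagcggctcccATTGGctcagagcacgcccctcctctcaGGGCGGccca
Acsl6: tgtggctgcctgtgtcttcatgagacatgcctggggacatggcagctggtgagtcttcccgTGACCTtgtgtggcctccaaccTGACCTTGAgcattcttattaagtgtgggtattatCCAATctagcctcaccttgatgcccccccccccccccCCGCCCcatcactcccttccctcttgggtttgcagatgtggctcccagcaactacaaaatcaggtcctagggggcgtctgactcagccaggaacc
Etfa: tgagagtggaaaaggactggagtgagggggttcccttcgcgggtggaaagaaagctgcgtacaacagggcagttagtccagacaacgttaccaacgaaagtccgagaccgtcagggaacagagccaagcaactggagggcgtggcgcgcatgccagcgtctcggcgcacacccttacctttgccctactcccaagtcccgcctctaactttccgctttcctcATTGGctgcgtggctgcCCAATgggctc
Cpt2: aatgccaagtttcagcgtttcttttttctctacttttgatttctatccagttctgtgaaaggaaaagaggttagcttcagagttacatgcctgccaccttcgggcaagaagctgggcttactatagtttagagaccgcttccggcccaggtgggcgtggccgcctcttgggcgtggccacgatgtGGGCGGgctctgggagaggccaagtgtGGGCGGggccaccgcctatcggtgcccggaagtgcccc
Acsl1: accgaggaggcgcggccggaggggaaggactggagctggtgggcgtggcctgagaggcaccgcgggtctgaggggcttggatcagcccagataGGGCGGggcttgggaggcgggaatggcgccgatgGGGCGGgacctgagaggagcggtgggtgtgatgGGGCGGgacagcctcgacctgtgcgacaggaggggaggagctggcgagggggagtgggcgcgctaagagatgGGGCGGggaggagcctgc

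Among all 32 promoters of the 29 genes, 16 (50%) held a CCAAT box and 22 (68.8%) a GC box, against 33.8% and 32.7% of the 32851 promoters of the table. The table was not limited to genes expressed here, and no comparison with promoters of like base content was made. The windows of Hadha and Hadhb overlap and share a GC box, which is counted for both. The core site was in 5 (15.6%, against 14%), and the extended element in 1, that of Acsl6 shown above (3.12%, against 0.387%). The direct repeat of the core site with 1 base between its copies (DR1), the usual form bound by the fatty acid receptor PPAR-alpha with its partner RXR, was in none of them and in 0.0335% of the table. These matches describe letters in this window and not binding, and no factor was measured.

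The synthetases that activate fatty acids split by isoform. Acsl1, the main long-chain acyl-CoA synthetase of heart muscle (ENSMUSG00000018796, chromosome 8, 46471037 to 46536051), had 676, 648, 662, 763 and 706 CPM in WT-16 against 606, 416, 358, 344 and 483 in KO-16. Every KO-16 library lay below every WT-16 library, and replicate 1 came nearest. The log2 fold change was -0.65 (SE 0.15, adjusted p = 0.0436), which is 1.56-fold lower, and -0.04 (SE 0.07, adjusted p = 0.768) at 8 weeks. Acsl6, a synthetase best known from brain and red cell precursors (chromosome 11, 54303798 to 54364756), moved the other way. It had 9.02, 7.83, 7.76, 10.4 and 8.34 CPM in WT-8 against 12.8, 10.6, 12.4 and 14.4 in KO-8, a rise of 1.45-fold (log2 SE 0.10, adjusted p = 0.0057). In WT-16 it had 9.35, 6.68, 11.2, 14.1 and 9.65 CPM and in KO-16 16.3, 21.1, 14.5, 22.8 and 17.3, a rise of 1.78-fold (log2 SE 0.19, adjusted p = 0.0387). At neither time did its groups overlap.

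Acsl3, a synthetase of the endoplasmic reticulum and lipid droplets, fell at 8 weeks. Its WT-8 libraries had 6.32, 8.54, 7.58, 8.01 and 7.88 CPM and its KO-8 libraries 5.97, 5.26, 5.63 and 5.15, with no overlap (log2 fold change -0.48, SE 0.10, adjusted p = 0.00878). At 16 weeks its groups overlapped, at 10.1 to 21.8 CPM in WT and 6.83 to 16.9 in KO (log2 fold change -0.42, SE 0.27, adjusted p = 0.341). Of its exonic bases 5.6% are shared with Utp14b. Acsl4, which prefers arachidonic acid, was at 26.2 ± 3.36 CPM in WT-16 against 19.97 ± 2.52 in KO-16 (adjusted p = 0.0873). Acsl5 was at 10.6 ± 2.37 and 15.04 ± 2.28 CPM (adjusted p = 0.0950). Acss1, the mitochondrial acetyl-CoA synthetase, was at 235 ± 36.6 and 171 ± 33.7 CPM (adjusted p = 0.0899). None of these 3 passed at 8 weeks.

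Per kilobase of exon, Acsl1 was the most abundant of the 5 long-chain synthetases in every group. It made up 88.9% ± 0.341 (SD, n = 5) of their summed CPM per kilobase in WT-8, 88.6% ± 1.05 (n = 4) in KO-8, 85.7% ± 1.14 in WT-16 and 78.9% ± 3.22 in KO-16 (n = 5 each). The share in KO-16 ran from 76.4% to 84.5% and that in WT-16 from 83.7% to 86.7%, so the ranges overlapped. Acsl6 had a mean share of 1.33% in WT-16 (0.938% to 1.64%) and of 3.64% in KO-16 (2.40% to 5.36%), without overlap. Acsl5 made up 2.86% ± 0.8 and 6.08% ± 1.71. These shares were not tested.

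**Figure D2:**
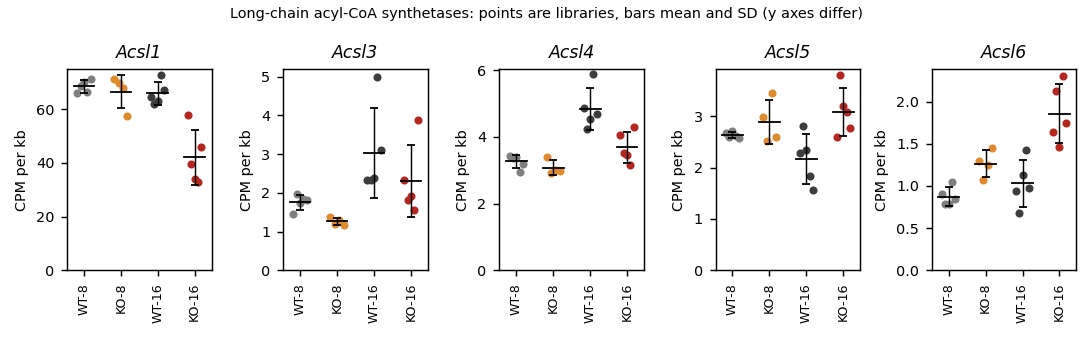
CPM per kilobase of exon (y axes, which differ between panels and start at 0) of the 5 long-chain acyl-CoA synthetases in the 4 groups (x axis). Points are libraries and bars the mean and SD. Acsl1 went from a mean of 65.9 in WT-16 to 42.1 in KO-16 and Acsl6 from 1.03 to 1.86.

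The carnitine shuttle held 2 of the 5 members that fell at 16 weeks. Cpt2, the inner-membrane carnitine palmitoyltransferase (chromosome 4, 107903981 to 107923610), had 74.5, 63, 81.8, 74.2 and 68.9 CPM in WT-16 against 65.8, 42.4, 45.3, 30.6 and 40.3 in KO-16. Its log2 fold change was -0.69 (SE 0.17, adjusted p = 0.0468). Crat, the carnitine acetyltransferase that buffers acetyl-CoA (chromosome 2, 30400471 to 30415813), had 284, 294, 267, 292 and 291 CPM in WT-16 against 269, 134, 159, 137 and 178 in KO-16 (log2 fold change -0.70, SE 0.17, adjusted p = 0.0468). For both genes KO-16 replicate 1 lay within the WT range and the other 4 KO-16 libraries lay below it. At 8 weeks the log2 fold change was -0.12 for each (SE 0.06; adjusted p = 0.241 for Cpt2 and 0.259 for Crat).

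Neither isoform of CPT1, the entry enzyme that malonyl-CoA inhibits, passed at either time. Cpt1a, the isoform typical of liver, had 43.2, 45.9, 45.1, 40.3 and 58.7 CPM in WT-8 against 52.5, 55.4, 49.9 and 57.5 in KO-8 (log2 fold change 0.20, SE 0.09, adjusted p = 0.195). In WT-16 it had 60.6, 32.9, 50.5, 51.6 and 38.8 CPM and in KO-16 34.8, 26.1, 36.5, 30.8 and 43.5 (log2 fold change -0.46, SE 0.17, adjusted p = 0.128). Cpt1b, the muscle isoform, had 42.2, 41.6, 40.7, 40.9 and 43.5 CPM in WT-8, 41.2, 43.8, 34.7 and 32.7 in KO-8, 12.1, 18.6, 17.2, 14.6 and 15.2 in WT-16 against 15, 15, 18.1, 12.3 and 11 in KO-16. Its log2 fold changes were -0.13 (SE 0.08) and -0.12 (SE 0.16). Of the exonic bases of Cpt1b 81.4% are also annotated to Gm44502 on the same strand, and pairs that fit both genes may not have been counted, so its level may be understated and was not compared with that of Cpt1a. The malonyl-CoA enzymes did not pass either. Acacb, the mitochondrial acetyl-CoA carboxylase that makes malonyl-CoA, was at 163 ± 24.6 CPM in WT-16 against 126 ± 15.9 in KO-16 (adjusted p = 0.109). Mlycd, which removes it, was at 18 ± 3.59 and 13.8 ± 1.88 CPM (adjusted p = 0.131).

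**Figure D3:**
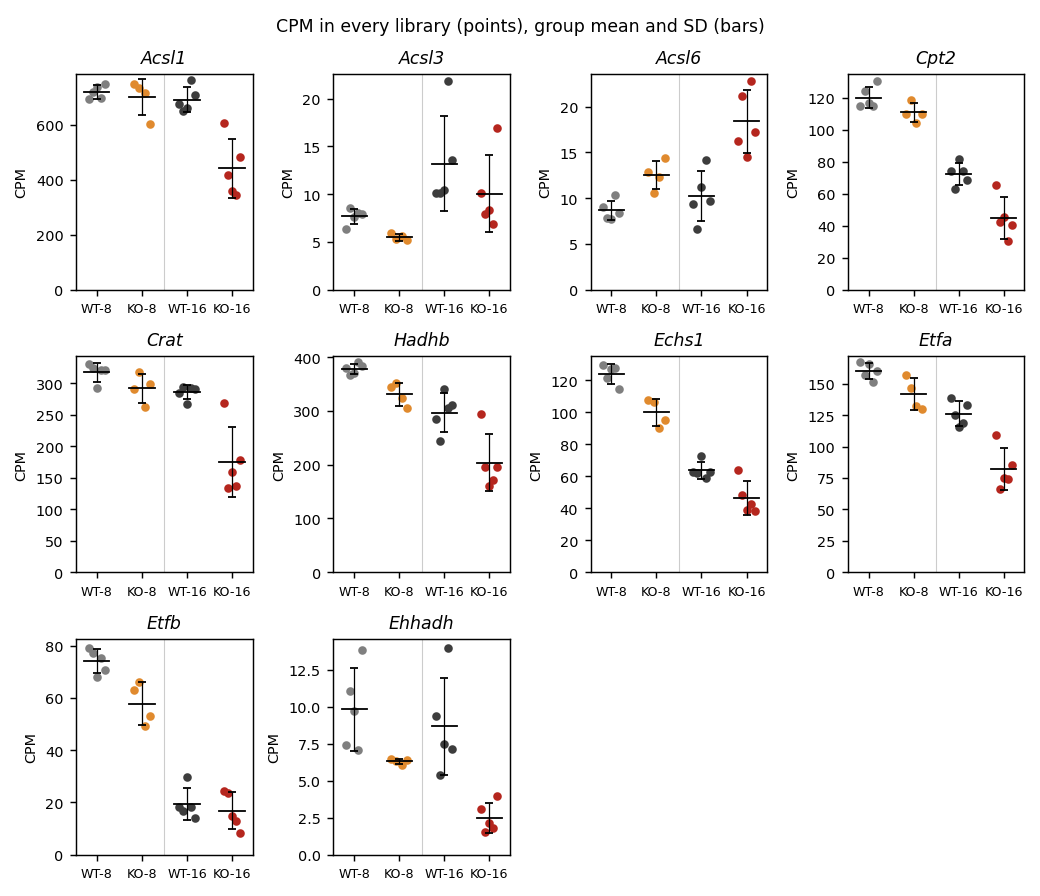
CPM (y axes from 0, differing between panels) in every library of each group (x axis) for the members that passed an adjusted p of 0.05 at 8 or 16 weeks. Points are libraries and bars the group mean and SD. In WT-16 and KO-16 Acsl1, Etfa and Ehhadh do not overlap downwards and Acsl6 does not overlap upwards.

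The long-chain enzymes of the matrix had a median log2 fold change of -0.521 at 16 weeks and -0.057 at 8 weeks, with all 4 below 0 at both. None passed at 16 weeks in the within-week fit and all 4 did in the fit to all 19 libraries. Acadl, long-chain acyl-CoA dehydrogenase, had 1236, 999, 898, 1235 and 1449 CPM in WT-16 against 865, 390, 416, 584 and 913 in KO-16. Replicate 5 of KO-16 lay just above the lowest WT-16 library and the other 4 lay below all of them (log2 fold change -0.88, SE 0.24, adjusted p = 0.0626). Acadvl, the very-long-chain dehydrogenase, was at 362 ± 42.8 CPM in WT-16 against 276 ± 78.5 in KO-16 (adjusted p = 0.173). Hadha and Hadhb encode the subunits of the mitochondrial trifunctional protein and lie head to head on chromosome 5, with 272 bases between their RefSeq start sites. Hadha was at 745 ± 92.9 CPM in WT-16 against 528 ± 125 in KO-16, 1.41-fold lower (log2 SE 0.16, adjusted p = 0.0853). Hadhb was at 297 ± 36.1 and 204 ± 52.7 CPM, 1.46-fold lower (log2 SE 0.16, adjusted p = 0.0748). In both KO-16 replicate 1 had a level inside the WT-16 range (745 and 294 CPM). At 8 weeks Hadhb had 380, 366, 370, 390 and 384 CPM in WT and 343, 352, 323 and 304 in KO, without overlap, a fall of 12.4% (log2 fold change -0.19, SE 0.06, adjusted p = 0.0469). Hadha was at -0.09 (SE 0.06, adjusted p = 0.404) there.

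Among the 5 enzymes of medium and short chains the median log2 fold change was -0.462 at 16 weeks and -0.113 at 8 weeks, with all 5 below 0 at both. Acaa2, the mitochondrial 3-ketoacyl-CoA thiolase, had the largest size of change of the group. It had 366, 267, 412, 305 and 271 CPM in WT-16 against 313, 93.5, 79.7, 87.4 and 154 in KO-16, with replicate 1 inside the WT range and the other 4 below it (log2 fold change -1.158, SE 0.33, adjusted p = 0.0677). Acadm, medium-chain acyl-CoA dehydrogenase, was at 940 ± 86.8 CPM in WT-16 against 558 ± 217 in KO-16, and its log2 fold change was -0.75 (SE 0.22, adjusted p = 0.0686). Hadh, the short-chain hydroxyacyl-CoA dehydrogenase, was at 174 ± 16.2 and 126 ± 32.9 CPM (adjusted p = 0.101). Acads, the short-chain acyl-CoA dehydrogenase, was at 27.6 ± 2.41 and 25.0 ± 7.69 CPM (log2 fold change -0.13, SE 0.19, adjusted p = 0.677).

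Echs1, the short-chain enoyl-CoA hydratase, fell at 8 weeks. Its WT-8 libraries had 130, 122, 127, 128 and 114 CPM and its KO-8 libraries 108, 106, 90.3 and 95.2, so that no KO library reached the lowest WT one (log2 fold change -0.31, SE 0.06, adjusted p = 0.00846). At 16 weeks it had 62.4, 61.9, 72.5, 58.9 and 62.5 CPM in WT and 64.1, 48.3, 38.8, 42.8 and 38.2 in KO (log2 fold change -0.45, SE 0.14, adjusted p = 0.0845), and KO replicate 1 lay within the WT range.

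Of the 4 enzymes that handle double bonds none passed at 16 weeks in the within-week fit, and Decr1, Eci1 and Eci2 did in the fit to all 19 libraries. Decr1, the mitochondrial dienoyl-CoA reductase, had 372, 288, 329, 372 and 418 CPM in WT-16 against 294, 96.9, 94, 108 and 230 in KO-16 (log2 fold change -1.11, SE 0.30, adjusted p = 0.0595). Only replicate 1 of KO-16 reached the WT range. Eci1, the mitochondrial enoyl-CoA isomerase, was at 73.2 ± 12.6 and 46.6 ± 18.2 CPM (adjusted p = 0.0964), and Eci2, found in both organelles, at 58.8 ± 6.23 and 41.0 ± 9.67 (SD, n = 5 each; adjusted p = 0.0695). Decr2, the peroxisomal reductase, was at 5.74 ± 1.44 and 6.57 ± 1.5 CPM (log2 fold change 0.20, SE 0.22, adjusted p = 0.581). None of these 4 passed at 8 weeks, where their log2 fold changes ran from -0.119 to 0.120. The further acyl-CoA dehydrogenases Acad10 and Acad11 had log2 fold changes from -0.202 to 0.089 over both times and did not pass. Acad10 was at 2.23 ± 0.636 CPM in WT-16 against 2.15 ± 0.618 in KO-16, and Acad11 at 87.3 ± 11.4 and 75.8 ± 11.1.

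Of the genes that pass electrons from the dehydrogenases to ubiquinone, Etfa, the alpha subunit of the electron transfer flavoprotein (chromosome 9, 55454508 to 55512243), fell at 16 weeks. It had 139, 125, 116, 118 and 133 CPM in WT-16 against 109, 65.9, 75, 74.3 and 85 in KO-16, without overlap and with replicate 1 the highest of KO (log2 fold change -0.62, SE 0.14, adjusted p = 0.0342). At 8 weeks its log2 fold change was -0.18 (SE 0.06, adjusted p = 0.0959). Etfdh, the dehydrogenase that takes up these electrons, had 476, 430, 482, 486 and 531 CPM in WT-16 against 414, 220, 194, 260 and 367 in KO-16, also without overlap, and did not pass (log2 fold change -0.73, SE 0.19, adjusted p = 0.0568). Etfb, the beta subunit, fell at 8 weeks instead, with 79.2, 77.2, 67.9, 75.2 and 70.9 CPM in WT-8 against 63, 66.2, 49.1 and 52.9 in KO-8 (log2 fold change -0.36, SE 0.08, adjusted p = 0.0164). At 16 weeks it had 18.4, 16.8, 29.8, 18.1 and 14 CPM in WT and 24.4, 23.8, 14.7, 12.8 and 8.30 in KO (log2 fold change -0.21, SE 0.28, adjusted p = 0.651). Of its exonic bases 53.0% are also annotated to Gm45233, which may lower its counts.

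The 4 peroxisomal genes had a median log2 fold change of 0.152 at 16 weeks, the only step with a median above 0 there, and 0.075 at 8 weeks. Ehhadh, the peroxisomal bifunctional hydratase and dehydrogenase (ENSMUSG00000022853, chromosome 16, 21761287 to 21787807), had the largest size of change of all 34 genes at both times. It had 7.41, 11.1, 9.68, 7.09 and 13.8 CPM in WT-8 against 6.45, 6.32, 6.05 and 6.38 in KO-8, with no overlap (log2 fold change -0.65, SE 0.17, adjusted p = 0.0284). In WT-16 it had 9.35, 5.42, 7.50, 14 and 7.12 CPM and in KO-16 3.08, 1.51, 2.16, 1.83 and 3.98, again with no overlap, and was 3.59-fold lower (log2 fold change -1.84, SE 0.31, adjusted p = 0.0153). Over all the alternative fits its log2 fold change at 16 weeks ran from -2.097 to -1.595, and replicate 1 of KO-16 was not its highest KO library.

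The other 3 peroxisomal genes did not pass at either time. Acox3, the oxidase of branched-chain substrates, had 12.9, 8.31, 11.9, 11.3 and 12.2 CPM in WT-16 against 13.4, 19.6, 17.9, 12.9 and 14.9 in KO-16 (log2 fold change 0.49, SE 0.16, adjusted p = 0.0934), and the groups only just did not overlap. Acaa1a, a peroxisomal thiolase, was at 9.68 ± 2.00 and 12.7 ± 2.20 CPM (SD, n = 5 each; adjusted p = 0.188). Acaa1a has a near-identical neighbour, Acaa1b, so reads may be split between them. Hsd17b4, the second bifunctional enzyme of the peroxisome, was at 63.7 ± 6.45 and 60.4 ± 7.51 CPM (log2 fold change -0.08, SE 0.12, adjusted p = 0.698).

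Counted over all members, groups without overlap were 4 lower (Acsl1, Etfa, Etfdh and Ehhadh; 2.61% of all genes) and 2 higher (Acsl6 and Acox3; 2.09%) at 16 weeks. At 8 weeks they were 5 lower (Acsl3, Hadhb, Echs1, Etfb and Ehhadh; 5.83%) and 1 higher (Acsl6; 5.01%).

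Libraries of KO-16 differed from each other in a way shared by most of the mitochondrial genes. For 16 enzymes of the matrix and inner membrane (those of the long-chain, medium- and short-chain and electron transfer steps with Cpt2, Crat, Eci1 and Decr1, grouped after their values were seen), the median log2 ratio to the WT-16 mean was -0.034 in replicate 1 and -0.700, -0.808, -0.873 and -0.642 in replicates 2 to 5. Replicate 1 was the highest KO-16 library for 15 of these 16 genes and for 22 of all 34. It also had the most Mpc1 and the most Esr1 of its group. How often it was the highest over all genes was not counted. Leaving it out raised the calls over all genes from 343 to 1702, so its difference was not limited to these genes. Without replicate 1 Acaa2 was at a log2 fold change of -1.65 (adjusted p = 0.000477, and 0.000477 to 0.438 over all its alternatives) and Decr1 at -1.43 (adjusted p = 0.00319, and 0.00202 to 0.320 over all of them). Replicate 1 had the highest KO-16 level of both genes, so leaving it out widened their falls of necessity. The values without it are therefore not a test. Among WT-16 the same median ran from -0.182 in replicate 2 to 0.180 in replicate 3. All 16 genes had a log2 fold change below 0 at 16 weeks (median -0.637), as did 49.6% of all genes tested. In the within-week fit 3 fell past the test, and 14 did in the fit to all 19 libraries (0.953% and 8.84% of all genes). As the 16 were grouped with their values known, these counts describe them and are not a test. In KO-8 the median was -0.033, -0.006, -0.215 and -0.225 in replicates 1 to 4, so that 2 of the 4 libraries stood lower.

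**Figure D4:**
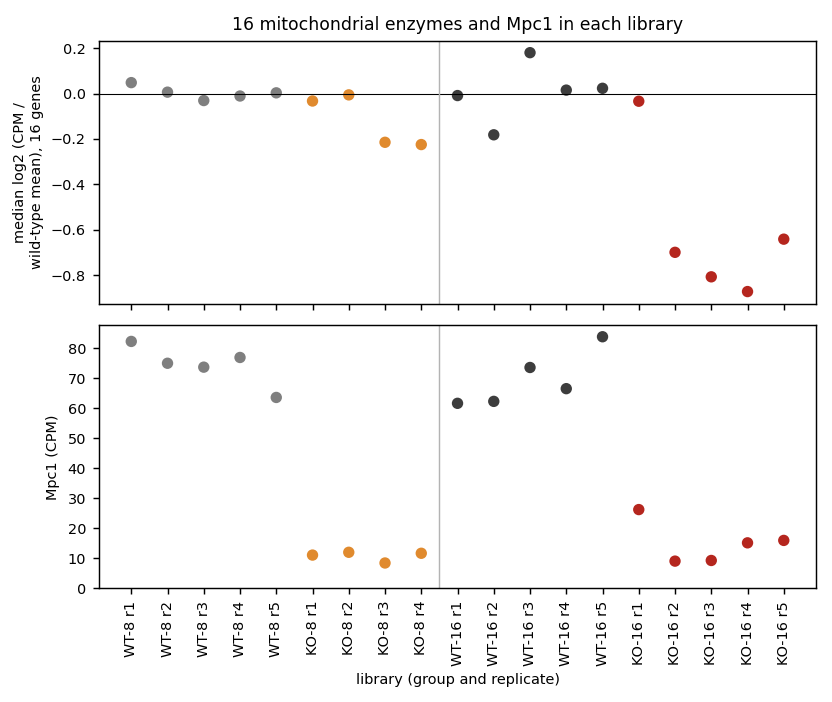
Median log2 ratio of 16 mitochondrial enzymes to the WT mean of the same week (upper panel) and Mpc1 in CPM (lower panel) in each of the 19 libraries (x axis). KO-16 replicate 1 lies at -0.034 in the upper panel, beside WT-16, with the other KO-16 libraries between -0.873 and -0.642, and has 26.2 CPM of Mpc1.

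**Figure D5:**
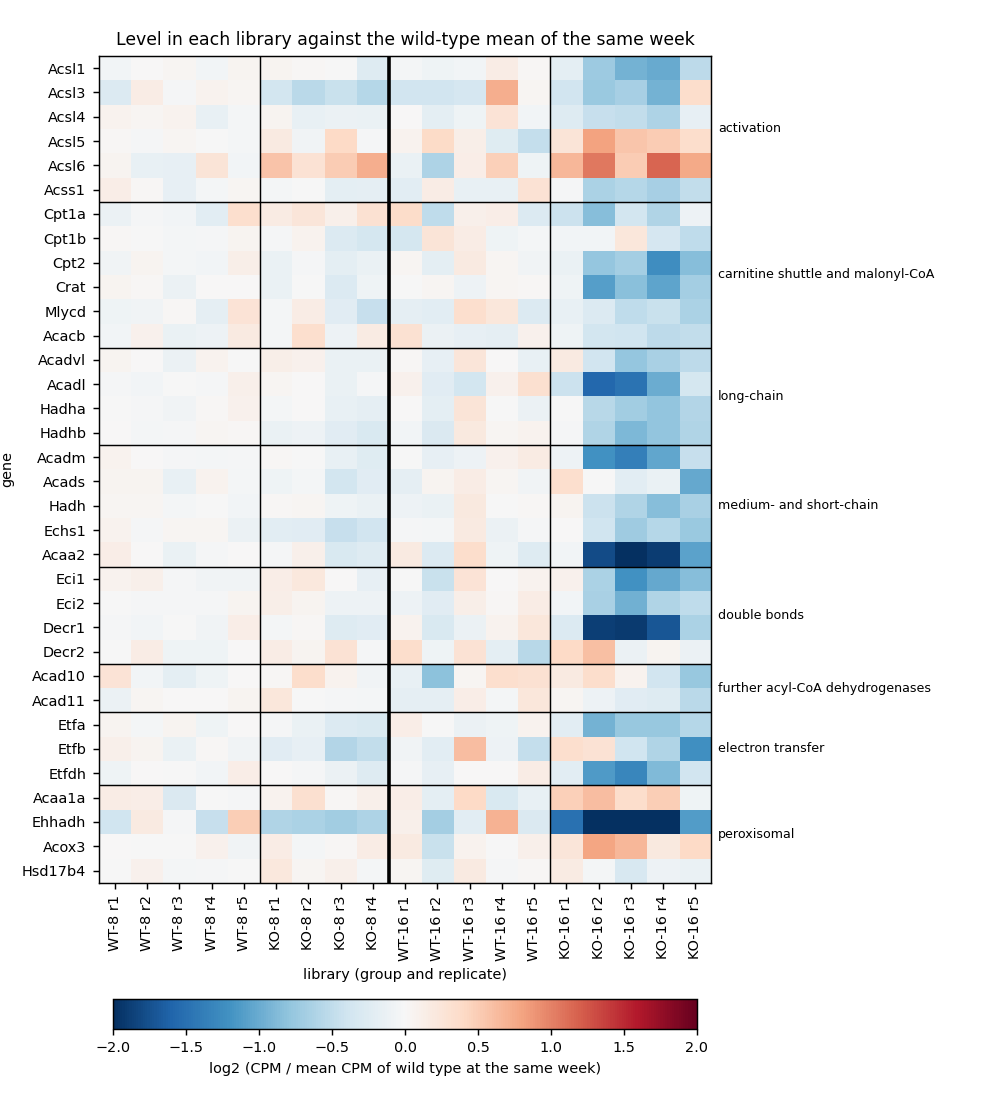
Log2 ratio of CPM to the WT mean of the same week for the 34 genes (rows, by step) in the 19 libraries (columns), with colours ending at -2 and 2. Blue marks lower and red higher values. Most mitochondrial rows are blue in KO-16 replicates 2 to 5 and pale in replicate 1, while Acsl6 is red in all 5.

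Whether the KO effect differed between 16 and 8 weeks was tested with an interaction term over all 19 libraries. No gene passed (0% of 16164, with 2044 genes at an unadjusted p under 0.05; DESeq2 called 21 and no filter 32, none of them a member, and limma-voom 0). At an unadjusted p of 0.05 the effect was more negative at 16 weeks for 18 members (4.69% of all genes) and more positive for 1, Acox3 (7.96%). The difference was -1.24 (SE 0.36, unadjusted p = 0.00225, adjusted p = 0.279) for Ehhadh and -0.61 (SE 0.18, unadjusted p = 0.00242, adjusted p = 0.279) for Acsl1 on the log2 scale. Acsl3, Cpt1b, Acads and Etfb had differences between 0.01 and 0.15 with unadjusted p-values from 0.641 to 0.939. Without KO-16 replicate 1 the interaction called 581 genes and 16 members, all 16 more negative at 16 weeks, and without KO-16 replicate 5 it called 111 genes. Replicate 1 was the highest KO-16 library for 22 of the 34 genes, so the member count without it is not a test.

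Further genes of the pathway outside the 34 passed in the within-week fits, and more did at 16 weeks in the fit to all 19 libraries. Of other fatty acid oxidation genes, 1 of 17 fell and 1 rose at 16 weeks (0.953% and 1.84% of all genes). At 8 weeks 2 of 18 fell and 1 rose (4.29% and 3.99% of all genes). Of other peroxisomal lipid genes 1 of 14 fell at 16 weeks, and 2 of 16 fell and 1 rose at 8 weeks. In the within-week fit, of 17 other fatty acid oxidation genes tested at 16 weeks, Slc25a20, the carnitine-acylcarnitine translocase between CPT1 and CPT2, fell from a mean of 82.9 CPM in WT to 51.8 in KO (log2 fold change -0.68, SE 0.17, adjusted p = 0.0478), and Acaca, the cytosolic acetyl-CoA carboxylase of fatty acid synthesis, rose from 9.23 CPM in WT to 22.7 in KO (log2 fold change 1.26, SE 0.29, adjusted p = 0.0410). The median of that list was -0.202. Dbi, an acyl-CoA binding protein, was at a log2 fold change of -0.71 (adjusted p = 0.0526). At 8 weeks Acaca rose (0.43, adjusted p = 0.0480), and Ech1, a dienoyl-CoA isomerase (-0.37, adjusted p = 0.0177), and Etfbkmt, the methyltransferase of ETF beta (-0.45, adjusted p = 0.0128), fell, out of 18 tested. Of other peroxisomal lipid genes, Nudt7, a peroxisomal CoA diphosphatase, fell at 16 weeks (-0.75, SE 0.15, adjusted p = 0.0273; 14 tested, median -0.357). At 8 weeks Ech1, which is on both lists, fell and Abcd2, a very-long-chain transporter, rose (0.56, adjusted p = 0.0270). No gene of peroxisome biogenesis passed in the within-week fits (16 tested at 8 and 15 at 16 weeks; medians 0.001 and -0.009), and none of 28 nuclear-encoded respiratory chain genes did, with medians of -0.018 and -0.102. In the fit to all 19 libraries, in which 21 members fell at 16 weeks (background 8.84% lower and 10.7% higher), 6 of the 19 listed other fatty acid oxidation genes were lower and 3 higher at that time. Of the 19 listed other peroxisomal lipid genes 5 were lower, of the 29 listed respiratory chain genes 6 were lower, and of the 16 peroxisome biogenesis genes 1 was higher. None of these 4 lists had a call at 8 weeks in that fit.

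Markers of several cell types also differed between KO and WT. Their levels were not set against those of the members library by library. The summed level of 8 cardiomyocyte markers was 115200 to 131000 CPM in WT-16 against 87230 to 124500 in KO-16, with none past the test in the within-week fit and 3 of 8 lower in the fit to all 19 libraries, and 106700 to 110900 in WT-8 and 103200 to 110100 in KO-8, with Pln lower. That of 8 fibroblast markers was 489.6 to 650.3 CPM in WT-16 against 664.2 to 1748 in KO-16 (3 of 8 rose, and 5 in the fit to all 19 libraries), and 678.4 to 764.9 in WT-8 and 908.5 to 1268 in KO-8 (4 of 8 rose). Endothelial markers had 1 of 7 higher at 16 weeks and 3 of 7 at 8 weeks, smooth muscle and pericyte markers 1 and 3 of 7, and macrophage markers none of 8. In the fit to all 19 libraries all 7 endothelial markers, 2 smooth muscle and pericyte markers and 2 macrophage markers were higher at 16 weeks, and 1 macrophage marker was lower. Erythroid markers, 6 genes of red cells, summed to 431.4 to 956.2 CPM in WT-8 against 256.3 to 568.3 in KO-8, and to 53.06 to 132.2 in WT-16 against 47.48 to 1129 in KO-16. Their median log2 fold change was -0.732 at 8 weeks, where Hbb-bt, a beta-globin, fell (-0.80, SE 0.20, adjusted p = 0.0219). It was 1.832 over the 4 tested at 16 weeks, where none passed in the within-week fit and 5 of 6 were higher in the fit to all 19 libraries. Acsl6, which is also known from red cell precursors, was higher in KO at both times. Acta1, the skeletal muscle actin, rose at 8 weeks (means of 64.6 CPM for WT and 496.5 for KO; log2 fold change 2.95, SE 0.29, adjusted p = 5.01e-05) and at 16 weeks (20.1 and 789.8 CPM; 5.31, SE 0.74, adjusted p = 0.00809). It was the 1 gene of the skeletal muscle list to pass, of 4 tested at 8 and 3 at 16 weeks. Ckm and Myl1 of that list did not pass at either time, and Ckm had a mean of 1014 CPM in WT-8 and 1088 in KO-8. Adipocyte markers summed to 9.39 to 68.4 CPM in WT-16 against 11.3 to 17.9 in KO-16, where Lep and Ucp1 were at 0, and atrial markers to 1.01 to 220.2 and 1.73 to 516.0 CPM. In bulk tissue fewer cardiomyocytes and less RNA of a gene per cell cannot be told apart, and the part of cell makeup in the results above was not tested.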

How the data were processed

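Total RNA depleted of ribosomal RNA was sequenced as stranded paired reads from 19 ventricular libraries. The deposited values are raw counts of read pairs per gene, made by the authors with featureCounts 1.6.3 (paired, reverse-stranded, largest overlap) on GRCm38 with Ensembl 96, per the file headers. Also listed, with no role given, per the submitters' processing notes, are STAR, RSEM, SAMtools, FastQC and cutadapt 1.16. All 55536 genes matched GENCODE M21 by ID. Each 16-week sample had 2 files from separate runs, whose counts were summed (chi-square per gene 1.34 to 3.15 between files of a sample, at least 6.305 between libraries of a group). The 8-week libraries were run separately, so week and run cannot be told apart and no level was tested between weeks.

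Members, steps and lists were chosen with earlier results of these data known. Replicate numbers follow deposition order and pair nothing. TMM factors (0.455 to 1.475) were computed once over 19 libraries. Each week was fitted alone with the edgeR 4.0.16 quasi-likelihood test (R 4.3.3, filterByExpr, Benjamini-Hochberg over all genes tested, threshold 0.05), since the 16-week libraries varied more. The difference between weeks was an interaction in 1 fit to all libraries. SE is the log2 fold change over the root of F. CPM per kilobase used the length column of the files. Named are members past a threshold, the largest change and most abundant member per step, and up to 3 genes per other list by adjusted p. The fits were tested on simulated data with known changes. Alternatives were upper-quartile and RLE scaling, no low-count filter, 1 CPM in 4 libraries, DESeq2 1.42.0, limma 3.58.1 voom with and without quality weights, thinning to 8632127 counts, ribosomal and mitochondrial genes left out, 1 fit to 19 libraries, either run alone, male libraries left out, the 18S share as a covariate and each library left out. TMM within the week and leaving out libraries under 10% 18S were added after seeing the data. Library totals, 8.63 to 27.5 M, set the precision of low counts. Promoters came from a RefSeq table (GRCm38.p6). Some genes that this naming rule selects are left out of the text. Figures used matplotlib 3.10.9.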

Additional observations from a re-analysis of the deposited data

Results flagged for a closer look

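Of 136 sets of libraries (34 genes in 4 groups), 13 held a library whose gap to its nearest neighbour, over the range of the group, passed the 95% critical value of Dixon's test. Chance flags about 5% of groups. In 3 of them the value was a high one of KO-16 replicate 1: Acss1 at 230 CPM (others 148 to 166), Hadha at 745 (432 to 506) and Hadhb at 294 (160 to 196).

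In WT-16 replicate 3 was highest for Echs1 at 72.5 CPM (others 58.9 to 62.5) and for Etfb at 29.8 CPM (14 to 18.4). At 8 weeks, WT-8 replicate 5 was highest for Acadl at 503 CPM, Eci2 at 75.1 and Decr1 at 258. Further WT-8 values that stood apart were those of Crat in replicate 3 (292 CPM, lowest), Acad11 in replicate 1 (112, lowest) and Hsd17b4 in replicate 2 (72.3, highest). In KO-8 replicate 1 was highest for Acsl4 at 18.4 CPM and for Acad11 at 142 CPM.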

How the results depend on the processing

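The median log2 fold change of the 34 genes was below 0 at both times under every alternative run, while the number of calls varied. At 16 weeks, 5 members fell and 1 rose among 343 genes. Members that fell numbered 3 with upper-quartile factors (337 genes), 12 with no filter (995), 15 with DESeq2 (1144) and 8 with limma-voom (356). They numbered 20 with voom and quality weights (3 rose, 2532 genes) and 21 in the fit to all 19 libraries (3 rose, 3157). None fell or rose without the male libraries (12 genes), with the 18S share as a covariate (28) or without libraries under 10% 18S (12, with fewer samples), and 0 rose in the earlier run alone. Leaving out 1 library gave 0 to 19 fallen and 0 to 3 risen members among 30 to 1855 genes. At 8 weeks thinning gave 3 fallen and 0 risen among 554 genes, and the median of Acad10 and Acad11 was 0.18. The fit to all libraries gave 0 and 0 (31 genes), and leaving out 1 library 3 to 4 and 1 to 2 (873 to 1183 genes). The interaction called 32 genes with no filter, 21 with DESeq2, and with 1 library left out 0 to 581 genes and 0 to 16 members.

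The log2 fold changes that changed sign lay between -0.21 (Etfb at 16 weeks) and 0.12 (Decr2 at 8 weeks), and none was past the test with either sign; the causes were not tested. Acadvl at 8 weeks was 0.012 (upper quartile), 0.003 (DESeq2, and TMM within the week) and 0.009 (quality weights), and -0.052 to 0.031 with 1 library left out. Eci2 at 8 weeks was 0.002 (RLE), 0.015, 0.006, 0.01, 0.029 (thinned) and 0.007 (TMM within the week), and -0.046 to 0.027. Thinned, Decr2 was -0.047 and Hsd17b4 -0.023 at 8 weeks. Acad10 at 16 weeks was 0.004 (upper quartile), 0.003 (DESeq2), 0.074 (voom), 0.035 (quality weights), 0.001 (ribosomal and mitochondrial genes out; TMM within the week), 0.024 (19 libraries) and 0.137 (males out), and -0.148 to 0.099. Hsd17b4 at 16 weeks was 0.045 without libraries under 10% 18S. With 1 library left out, 8-week ranges were -0.075 to 0.024 (Acsl1), -0.051 to 0.005 (Acadl), -0.002 to 0.121 (Eci1), -0.005 to 0.171 (Acad10) and -0.023 to 0.069 (Acad11), and 16-week ranges -0.282 to 0.009 (Acads) and -0.373 to 0.028 (Etfb). No paired analysis was possible because the labels give no replicate numbers shared between groups.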

Other observations

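Levels in WT also differed between the 2 times. The ratio of the mean CPM in WT-16 to that in WT-8 ran from 0.262 for Etfb to 2.49 for Acadl, with a median of 0.797 and 25 of the 34 genes below 1. Acads (0.337), Cpt1b (0.372) and Mlycd (0.398) were near the low end, and Acsl3 (1.72), Decr1 (1.51) and Acadm (1.41) near the high end. Week and sequencing run cannot be told apart in these ratios, and they were not tested.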
